A study of Rattus norvegicus with 6 samples.

Results

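Fat cell genes were followed in adrenal RNA from spontaneously hypertensive rats (SHR) and Wistar-Kyoto rats (WKY). Every probe set annotated to Cfd, Fabp4, Medag, Lpl, Pparg, Adipoq, Lep or Slc2a4 was taken, which gave 12 of the 8740 probe sets left on the array without its 59 controls. They stand for 7 of the 8 genes, of 4736 genes named on the array, since no probe set in the array's annotation table names Adipoq, the gene of adiponectin. The samples were 3 SHR arrays and 3 WKY arrays (Affymetrix, with the signal of several short probes joined into 1 value per probe set). SHR is an inbred strain with high blood pressure and WKY is the inbred strain usually set beside it. Age, sex and treatment are not given in the labels. Nor do they tell whether each sample is another animal, and the p-values therefore reflect a spread among arrays that may be technical.

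Fat cells store fatty acids as triglyceride, release them between meals and secrete proteins that act on other organs. Lipoprotein lipase frees fatty acids from circulating lipoproteins, fatty acid binding protein carries them inside the cell, and the nuclear receptor PPAR gamma switches on the genes of the mature fat cell. The rat adrenal gland lies in a pad of fat that holds brown fat cells, which burn fatty acids for heat through the uncoupling protein Ucp1, beside white ones. A dissected gland can carry some of this fat with it, and cells inside the gland also use some of the same genes.

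The 6 arrays had been brought to one level, with a mean intensity of 2504 in each after trimming 2% at each end. SHR replicate 2 had a ratio of 3' to 5' signal for the hexokinase control, which rises as RNA degrades, of 4.21, against 1.96 to 2.54 in the other 5 arrays. The same ratio for the GAPDH control did not set it apart, at 0.947, with 0.901 to 1.14 over the 6 arrays. The labels name no batch, but 2 hybridization runs were inferred from gaps between the clock times of hybridization, without the date. By these times SHR replicate 1 and the 3 WKY arrays fell in a first run, and SHR replicates 2 and 3 in a second. The glands carried the markers of their own tissue. Star, which brings cholesterol into mitochondria, read 59059 to 93172 in SHR and 73500 to 105013 in WKY, and Th, the first enzyme of catecholamine synthesis, 9723 to 14782 in SHR and 10446 to 13405 in WKY.

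The comparison asked how far fat cell genes differed between SHR and WKY adrenal glands. Cfd and Medag were lower in SHR, with a WKY mean 4.63 times the SHR mean for Cfd and SHR values too dim for more than a rough fold for Medag, while the 8 other tested probe sets of the group did not pass the test. Each probe set was compared as log2(intensity + 181.5), a scale that understates the change of dim probe sets, with limma over 5244 tested probe sets and Benjamini-Hochberg adjustment at 0.05. Of the 12 probe sets 10 were bright enough to be tested, and 0 were called higher and 2 lower in SHR. Over all tested probe sets 1.95% were called in either direction, 1.07% higher and 0.877% lower in SHR. At an unadjusted p under 0.05 stood 3 of the 10, against 13.9% of all. The SHR arrays lay wholly below the WKY arrays in 3 of the 10 and wholly above in 0, against 10.5% and 10.2% of all tested probe sets. The median log2 difference of the 10 was -0.46, against -0.0069 over all tested probe sets, and 7 of the 10 had a negative sign, against 50.9% of all. Those 10 count Lpl 3 times and Lep 2 times. With 1 probe set per gene, 4 of 7 genes had a negative sign (57.1%), against 51.6% of all genes, and the median was -0.39. In tissue RNA, fewer fat cells and less RNA of these genes per cell cannot be told apart.

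**Figure D1:**
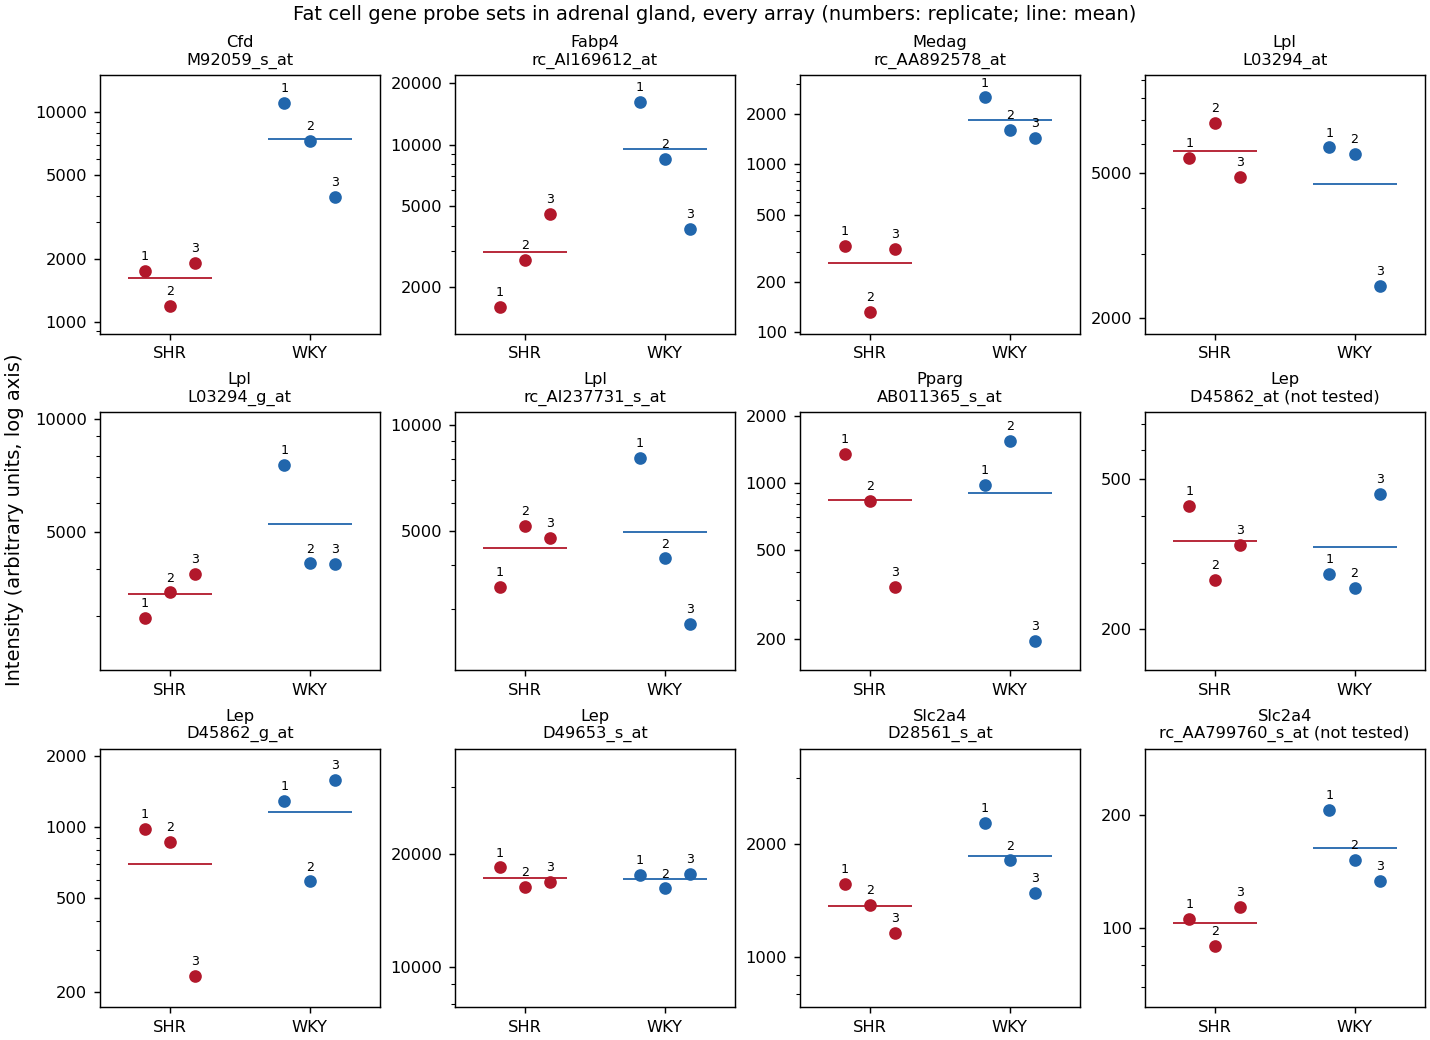
Intensity (arbitrary units, log axis) of the 12 probe sets of 7 fat cell genes on each array, SHR on the left in red and WKY on the right in blue, with the replicate number above each point and a line at the mean of each strain. The 3 SHR arrays lie below the 3 WKY arrays in 4 of the 12 panels, Cfd, Medag, L03294_g_at of Lpl and rc_AA799760_s_at of Slc2a4. WKY replicate 3 is the lowest WKY array in 9 of the 12 panels.

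Among the secreted proteins, Cfd encodes adipsin, the serine protease that cleaves complement factor B in the alternative pathway and that mature fat cells release in large amounts. Its probe set (M92059_s_at) read 1744, 1189 and 1906 in SHR replicates 1, 2 and 3, against 11114, 7341 and 3958 in WKY replicates 1, 2 and 3. The strains did not overlap, and within WKY the highest array stood 2.81 times above the lowest. The means were 1613 ± 376 in SHR and 7471 ± 3580 in WKY (SD, n = 3 each). The log2 difference was -2.00 ± 0.35 (SE; limma adjusted p = 0.0324). With the hybridization run as a block, which sets SHR replicate 1 against the WKY arrays, it was -1.87 ± 0.53 and no longer called (limma adjusted p = 0.319). Leaving out any of the 5 other arrays also lost the call, with differences from -1.66 to -2.12 and limma adjusted p from 0.0773 without WKY replicate 1 to 0.147 without SHR replicate 2. WKY replicate 3 had been singled out for its low fat cell values, so leaving it out widens the difference by construction, to -2.38 ± 0.26 (limma adjusted p = 0.0108).

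Medag encodes a protein known from mouse as a promoter of fat cell formation from precursor cells. Its probe set (rc_AA892578_at) read 326.2, 132.5 and 311.9 in the 3 SHR arrays, against 2510, 1612 and 1432 in the 3 WKY arrays. The strains did not overlap, and WKY replicate 3 lay close to WKY replicate 2. The SHR values were dim. They lay above 15.9% to 30.2% of the probe sets of their own arrays, against 61.2% to 75.0% in WKY, and the files carry no call of detection. The log2 difference was -2.21 ± 0.30 (SE; limma adjusted p = 0.0123, the 37th smallest p of 5244), with means of 256.9 ± 107.9 in SHR and 1851 ± 578 in WKY (SD, n = 3 each). It was -2.36 ± 0.34 without WKY replicate 3 (limma adjusted p = 0.0318). With the hybridization run as a block it was -1.97 ± 0.44 and no longer called (adjusted p = 0.201), and without WKY replicate 1 it was -1.99 and missed the threshold (0.0611). SHR replicate 2, the array with the raised hexokinase ratio, was the lowest array for both Cfd and Medag. Without it Medag was at -1.99 and still called (limma adjusted p = 0.0442).

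Cfd and Medag were the called genes, so the 250 bases before the start of each gene are shown, with those of Lep, a fat cell gene that was not called, beside them. The sequences are RefSeq's for the GRCr8 assembly, and the promoter table used here matched 5 of the 8 genes. Each is written 5' to 3' and capitals mark matches to the motifs searched for.
Cfd promoter, chr7:10465497-10465746, minus strand: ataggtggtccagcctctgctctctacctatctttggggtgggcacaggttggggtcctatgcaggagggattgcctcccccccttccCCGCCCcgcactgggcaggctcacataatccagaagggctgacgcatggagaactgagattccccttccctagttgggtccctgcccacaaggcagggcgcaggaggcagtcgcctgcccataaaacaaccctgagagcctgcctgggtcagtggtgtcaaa
Medag promoter, chr12:10670914-10671163, minus strand: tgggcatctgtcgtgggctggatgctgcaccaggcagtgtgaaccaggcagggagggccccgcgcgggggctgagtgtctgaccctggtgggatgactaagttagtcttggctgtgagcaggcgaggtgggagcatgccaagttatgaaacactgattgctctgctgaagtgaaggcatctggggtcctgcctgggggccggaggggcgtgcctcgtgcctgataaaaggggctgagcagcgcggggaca
Lep promoter, chr4:58626288-58626537, plus strand: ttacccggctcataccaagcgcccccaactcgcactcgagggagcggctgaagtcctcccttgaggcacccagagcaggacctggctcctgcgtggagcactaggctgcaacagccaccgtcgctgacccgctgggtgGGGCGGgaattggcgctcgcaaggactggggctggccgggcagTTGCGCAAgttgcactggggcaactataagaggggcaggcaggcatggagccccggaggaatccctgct
The motifs, looked for on both strands, were TATAAA (the TATA box), AGGTCA (the element of many nuclear receptors), TTNNGCAA (a core bound by C/EBP factors), CACGTG (an E-box) and GGGCGG (a GC box). Cfd held 1 GC box, starting 162 bases before the gene's start, and Lep held 1, at 112 bases, and a C/EBP core at 69 bases. Medag held 0 matches, which says only that these letters are not in its window. No match overlapped another. Of 33469 rat promoter windows of this length, 30.5% held GGGCGG, 9.22% held TTNNGCAA, 12.9% held TATAAA, 14.1% held AGGTCA and 5.59% held CACGTG. A match is a description of letters and not a site of binding.

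Lep encodes leptin, the hormone through which fat stores signal to the brain. Its 3 probe sets did not behave alike. D49653_s_at was bright and flat, at 18381, 16343 and 16860 in SHR and 17580, 16177 and 17651 in WKY. The highest array exceeded the lowest by a factor of 1.14, and 0.992% of the tested probe sets varied less over the 6 arrays on the log2 scale. D45862_g_at varied widely, at 987.6, 866.7 and 233.2 in SHR and 1294, 589.4 and 1595 in WKY. D45862_at was dim, at 271.0 to 426.1 in SHR and 257.0 to 456.9 in WKY, and was not tested. In all 3 probe sets the strains overlapped. The log2 differences were 0.0042 ± 0.11 for D49653_s_at (SE; limma adjusted p = 0.992) and -0.66 ± 0.47 for D45862_g_at (0.576). In all 3 Lep probe sets WKY replicate 3 was the highest WKY array. Which of the 3 tracks the leptin transcript was not tested.

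Of the genes of fatty acid uptake, Fabp4, the fatty acid binding protein of fat cells, showed the widest spread. Its probe set (rc_AI169612_at) read 1599, 2729 and 4573 in SHR, against 16168, 8507 and 3869 in WKY. SHR replicate 3 lay above WKY replicate 3, so the strains overlapped, and WKY replicate 1 stood 4.18 times above WKY replicate 3. The means were 2967 ± 1501 in SHR and 9515 ± 6211 in WKY (SD, n = 3 each). The log2 difference of -1.52 ± 0.52 (SE) did not pass (limma adjusted p = 0.235). It was -2.03 ± 0.44 without WKY replicate 3 and -2.22 ± 0.69 with a block on run, and passed in neither (limma adjusted p = 0.0992 and 0.366).

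Lpl encodes lipoprotein lipase, which is made by fat, muscle and several other cell types. Its 3 probe sets differed in sign. L03294_at read 5504, 6849 and 4859 in SHR, against 5868, 5629 and 2445 in WKY, where WKY replicate 3 was the lowest of the 6 arrays. L03294_g_at read 2967, 3466 and 3874 in SHR, against 7570, 4139 and 4132 in WKY. There the strains did not overlap, as in 10.5% of all tested probe sets with SHR below WKY. The third, rc_AI237731_s_at, read 3471, 5171 and 4788 in SHR, against 8059, 4182 and 2718 in WKY, with WKY replicate 1 at the top and WKY replicate 3 at the bottom of all 6. The log2 differences were 0.38 ± 0.32, -0.54 ± 0.25 and -0.03 ± 0.36 (SE), with limma adjusted p of 0.656, 0.388 and 0.979. Without WKY replicate 3 all 3 had a negative sign, at -0.02, -0.69 and -0.38, and none passed (limma adjusted p from 0.333 to 0.987). WKY replicate 3 was the lowest WKY array in all 3, so leaving it out lowers each difference by construction.

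Pparg encodes PPAR gamma. Its probe set (AB011365_s_at) read 1350, 828.0 and 341.1 in SHR, against 976.1, 1533 and 195.3 in WKY. The strains overlapped, and replicate 3 was the lowest array of each strain, with WKY replicate 3 a factor of 7.85 below WKY replicate 2. The log2 difference was 0.04 ± 0.60 (SE; limma adjusted p = 0.988). It moved to -0.60 ± 0.46 without WKY replicate 3 and to 0.75 ± 0.82 under a block on hybridization run, with no call in either (limma adjusted p = 0.609 and 0.841).

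Slc2a4 encodes GLUT4, the glucose transporter that insulin brings to the surface of fat and muscle cells. D28561_s_at read 1570, 1375 and 1160 in SHR, against 2277, 1809 and 1486 in WKY. SHR replicate 1 lay above WKY replicate 3 and the strains overlapped, with a log2 difference of -0.39 ± 0.21 (SE; limma adjusted p = 0.457). The dim rc_AA799760_s_at, at 90.1 to 113.9 in SHR and 133.5 to 205.9 in WKY, lay below the filter. Its SHR arrays were all below its WKY arrays, and with no filter it stood at -0.27 ± 0.15 (limma adjusted p = 0.573).

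**Figure D2:**
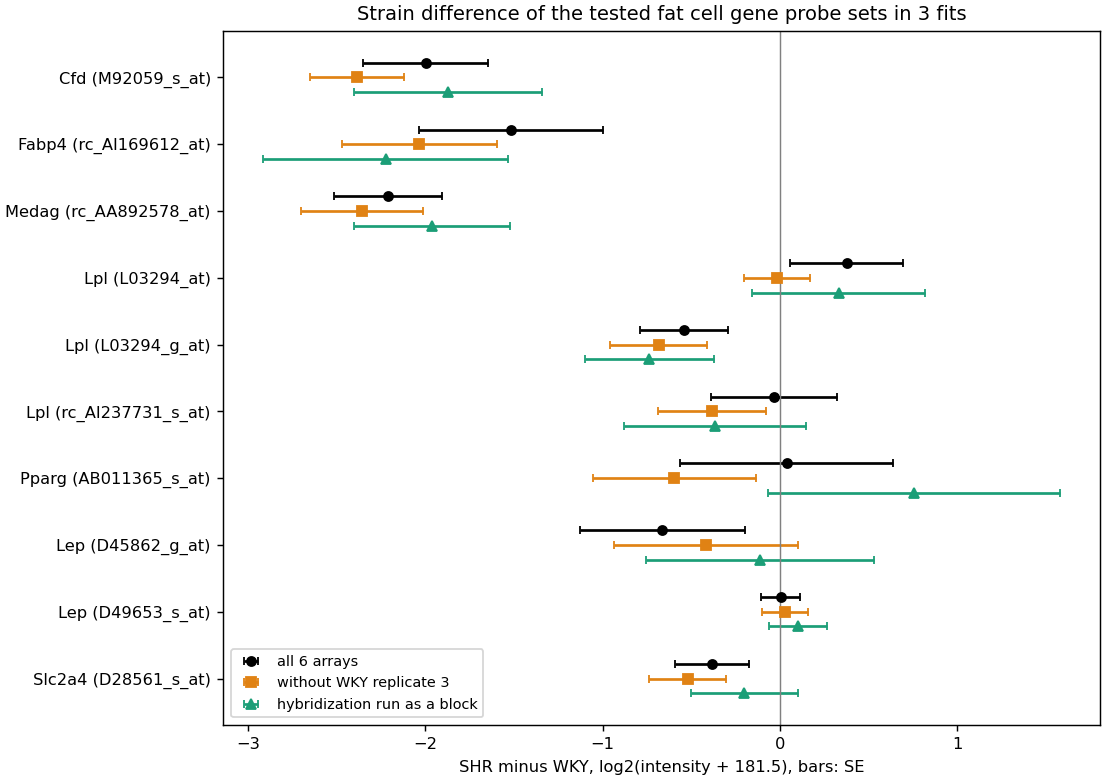
Log2 difference, SHR minus WKY, with its SE for the 10 tested probe sets, from all 6 arrays (black circles), without WKY replicate 3 (orange squares) and under a block on hybridization run (green triangles). Cfd, Fabp4 and Medag lie between -1.5 and -2.4 in the 3 fits and the others nearer to 0.

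The group varied among arrays as well as between strains. Averaged over 1 probe set per gene after subtracting each gene's mean over the 6 arrays, the log2 level was -0.32, -0.48 and -0.42 in SHR replicates 1, 2 and 3, against 0.86, 0.58 and -0.22 in WKY replicates 1, 2 and 3. By this mean the 3 SHR arrays lay within a narrow band, and WKY replicate 3 stood nearer to them than to the other WKY arrays. Single genes varied more within SHR, and in opposite directions. From SHR replicate 1 to SHR replicate 3 Fabp4 went from 1599 to 4573 and Pparg from 1350 to 341.1. WKY replicate 3 was the lowest WKY array for 6 of the 7 genes, a description only, since low fat markers in this array were known when the genes were chosen. WKY replicate 1 was the highest for 5 of the 7. Of all tested genes, 29.3% were lowest in WKY replicate 3 and 29.0% highest in WKY replicate 1 within WKY. For Medag and Cfd WKY replicate 3 still exceeded every SHR array, with at most 326.2 in SHR against 1432 for Medag, and with at most 1906 in SHR against 3958 for Cfd. With WKY replicate 3 left out, 2 of the 10 probe sets were called lower, again Cfd and Medag, and 9 of the 10 had a negative sign. Of all probe sets 1.11% were called in either direction, 0.572% higher and 0.534% lower. Leaving out this array moves any gene that is low in it within WKY towards lower in SHR by construction. The counts without it are therefore a description only. With the hybridization run as a block 0 of the 10 were called in limma, 3 stood at an unadjusted p under 0.05, against 9.19% of all, and 0.381% of all were called, 0.210% higher and 0.172% lower.

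Other markers of fat cells were read from a list chosen beside the group. Of 8 tested markers of white or general fat cells 0 passed in limma (2 at an unadjusted p under 0.05), 7 had a negative sign and the median log2 difference was -0.38, against -0.0099 over all 3144 genes. By gene, 1.65% of all were called, 0.891% higher and 0.763% lower. At an unadjusted p under 0.05 in limma stood 409 of all 3144 genes, the count to set beside those of this and the following lists. Car3, the carbonic anhydrase that is abundant in fat and slow muscle, read 3253, 2831 and 2603 in SHR, against 12163, 6161 and 4216 in WKY (log2 difference -1.19 ± 0.34, limma adjusted p = 0.147). Its strains did not overlap, and WKY replicate 1 was again the highest array. Rbp4, the retinol carrier made by liver and fat, was at -0.84 ± 0.36 (0.353) and Gpd1, which makes the glycerol backbone of triglyceride, at 0.72 ± 0.35 (0.406). Summed over the 9 markers of the list on the array the intensity was 26404 to 31760 in SHR and 29557 to 56129 in WKY, and none was at 0. Plin1, the lipid droplet coat protein, was dim, at 109.6 to 163.0 in SHR and 142.8 to 829.7 in WKY. Their part in the difference of Cfd and Medag was not tested.

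Of 6 tested brown fat markers 0 passed, at an unadjusted p under 0.05 or adjusted, 3 had a negative sign and the median was -0.12. Those of smallest p were Cidea, a lipid droplet protein of brown fat, at -0.74 ± 0.33 (limma adjusted p = 0.367), Cpt1b, which brings fatty acids into mitochondria, at -0.30 (0.574), and Fabp3, a fatty acid binding protein of heart and brown fat, at 0.43 (0.581). Ucp1, the defining protein of brown fat, was chosen after its values were seen. Its brightest probe set read 2197, 4468 and 15049 in SHR, against 11472, 9626 and 2770 in WKY (log2 difference -0.33 ± 0.72, adjusted p = 0.877). SHR replicate 3 was the highest of the 6 arrays for Ucp1, while for Cfd and Medag it read 1906 and 311.9, below every WKY array. Within SHR it was the highest array for Cfd as well, and for Fabp4 it read 4573, above WKY replicate 3 at 3869. Summed over the 8 brown fat markers on the array the intensity was 13325 to 28660 in SHR and 12311 to 30706 in WKY, and none was at 0. WKY replicate 3 was the lowest WKY array for 4 of the 6 tested markers, against 29.3% of all genes. WKY replicate 1 was the highest for all 6, against 29.0% of all genes. These counts are a description only, since low fat markers in WKY replicate 3 were known when the lists were chosen.

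**Figure D3:**
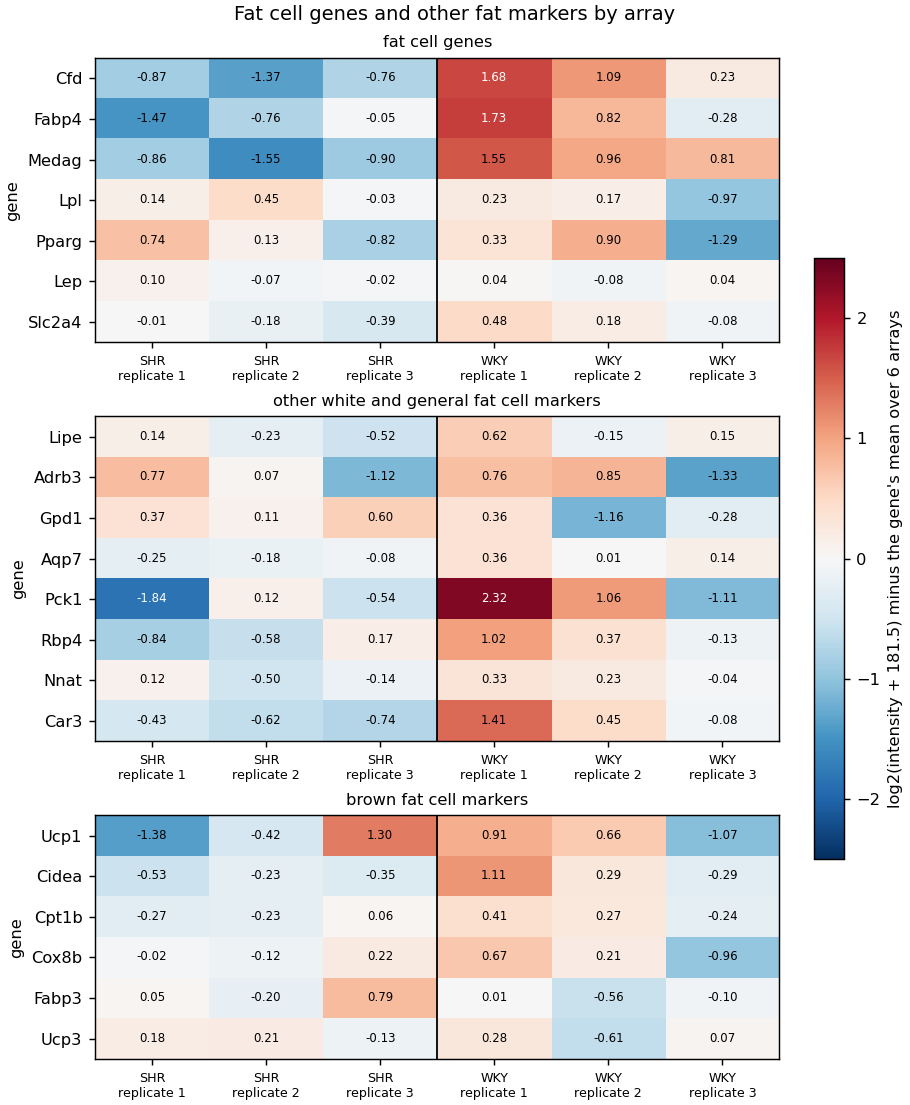
Log2(intensity + 181.5) minus the gene's mean over the 6 arrays for 7 fat cell genes (top), 8 other fat cell markers (middle) and 6 brown fat markers (bottom), with SHR arrays left of the line and WKY arrays right of it. Red is above and blue below the gene's mean. WKY replicate 1 is above the mean for every gene shown, and Ucp1 is highest in SHR replicate 3.

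Genes of the same pathways were followed by 1 probe set per gene. Of 12 tested genes of fatty acid uptake, storage and lipolysis 0 passed in limma (4 at an unadjusted p under 0.05), 10 had a negative sign and the median log2 difference was -0.34. The smallest p values were those of Cd36, the fatty acid transporter, at -1.44 ± 0.35 (limma adjusted p = 0.0969), Mgll, which splits monoglycerides, at -0.51 ± 0.17 (0.224), and Dbi, which binds acyl-CoA, at -0.52 ± 0.21 (0.326). The Cd36 probe set read 2757, 1826 and 4377 in SHR, against 8043, 11455 and 5449 in WKY, with no overlap. Of 12 genes of fatty acid and triglyceride synthesis 1 rose, Me1, the malic enzyme that makes NADPH, by 1.29 ± 0.18 (0.0125), 0 fell and the median was -0.07. Me1 was not called with a block on hybridization run (1.38, adjusted p = 0.140).

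Of 19 transcription factors and regulators of fat cell formation 0 passed in limma (2 at an unadjusted p under 0.05), and their median was -0.03. Id2, an inhibitor of helix-loop-helix factors, was at -0.88 ± 0.33 (limma adjusted p = 0.279). Dlk1, known as preadipocyte factor and also made in the adrenal cortex, was at -0.25 ± 0.10 (0.294), and Stat5a at 0.68 ± 0.31 (0.391). Of 14 insulin signalling and glucose uptake genes 1 rose, Grb14, an adaptor that inhibits the insulin receptor, by 1.15 ± 0.22 (0.0483), with a list median of 0.11. It was not called without WKY replicate 3 (1.17, adjusted p = 0.103) or with the run as a block (1.39, 0.202). Of 7 other adipokines and receptors 1 rose, Hp, which encodes haptoglobin, by 1.78 ± 0.21 (0.00548), with a median of -0.10. Hp stayed called without WKY replicate 3 (1.68, 0.0275) but not with the run as a block (1.77, 0.121).

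Some markers of other cell types were called as well. Of 15 fibroblast and matrix genes 6 were called lower in SHR, Gpc3 (-1.60), Col3a1 (-1.78), Col1a2 (-0.98), Col5a1 (-0.81), Col1a1 (-1.39) and Fn1 (-0.997), with a median of -0.81. Their summed intensity was 90371 to 100503 in SHR and 125336 to 142671 in WKY, with WKY replicate 3 at 126260. That sum includes Sparc, at 38098 to 42152 in SHR and 33628 to 40762 in WKY. WKY replicate 3 was the lowest WKY array for 7 of the 15 genes, against 29.3% of all genes, and the highest for 5. Col3a1, Col1a1 and Fn1 were among the 7, Col1a1 narrowly, at 13256 against 13294 in WKY replicate 2. Col1a2 was highest in WKY replicate 3, at 5667, and Col5a1 was lowest in WKY replicate 1. The brightest Dcn and Mmp2 probe sets, at -1.45 and 0.24, did not pass (limma adjusted p = 0.0786 and 0.638), but another probe set of each was called, at -1.74 for Dcn and -1.81 for Mmp2 (0.0476 and 0.0140). Of 10 leukocyte and antigen presentation genes 3 were called lower, RT1-Ba (-1.31), RT1-Db1 (-1.22) and Cd74 (-1.76), and RT1-Bb, at -0.26 by its brightest probe set, was called by another at -2.03 (limma adjusted p = 0.00548). The list's median was -0.34, and its summed intensity 27495 to 31862 in SHR and 40665 to 72188 in WKY. Without WKY replicate 3 the calls were 1 of 15, Col3a1, and 1 of 10, Cd74. Blocking on the run left 0 of each in limma, with 7 of 15 and 4 of 10 at an unadjusted p under 0.05. Their part in the difference of Cfd and Medag was not tested.

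Red blood cell genes were also low in WKY replicate 3 within WKY. Hbb, a beta globin gene whose probe set may also read near-identical globin genes, read 36263, 35090 and 33194 in SHR, against 81461, 93730 and 40464 in WKY, with no overlap. Of the 3 genes tested 0 passed (2 at an unadjusted p under 0.05), at -0.95 for Hbb, -0.74 for Hbb-b1 and -0.83 for Alas2 (limma adjusted p = 0.160, 0.118 and 0.389). Without WKY replicate 3 Hbb and Hbb-b1 were called lower. With the run as a block 0 of 3 were called (1 at an unadjusted p under 0.05), with Hbb at -0.90 and Hbb-b1 at -0.88 (limma adjusted p = 0.604 and 0.389). The summed intensity was 54477 to 56129 in SHR and 65262 to 135748 in WKY. Their part in the fat cell gene result was not tested.

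Among genes of the gland itself, of 10 cortex markers 0 passed (2 at an unadjusted p under 0.05) with a median of 0.05, and those of smallest p were Inha at 0.59, Nr0b1 at 0.85 and Nr5a1 at 0.34 (limma adjusted p = 0.0732, 0.122 and 0.367). Of 11 medulla markers 1 fell, Dbh, which makes noradrenaline, by 1.29 on the log2 scale (limma adjusted p = 0.00548), and 9 had a negative sign. At an unadjusted p under 0.05 stood 6 of the 11, against 409 of all 3144 genes. The median of the medulla markers was -0.52, further from 0 than the -0.39 of the fat cell genes. Of 4 smooth muscle genes 1 rose, Acta2, by 1.34 (0.00491), with a median of 0.04. Of 6 endothelial genes 0 passed at an adjusted or an unadjusted p, with Flt1, Kdr and Nos3 at 0.31, -0.19 and -0.20 and a median of -0.10. Of 8 skeletal muscle genes, a tissue that shares Lpl, Slc2a4 and Car3 with fat, 0 passed (2 at an unadjusted p under 0.05), 4 had a negative sign and the median was 0.04. Those of smallest p were Myh1 at 1.16, Car3 at -1.19 and Casq1 at 0.42 (limma adjusted p = 0.105, 0.147 and 0.410). With the run as a block none of Dbh, Acta2 and Cfd was called.

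**Figure D4:**
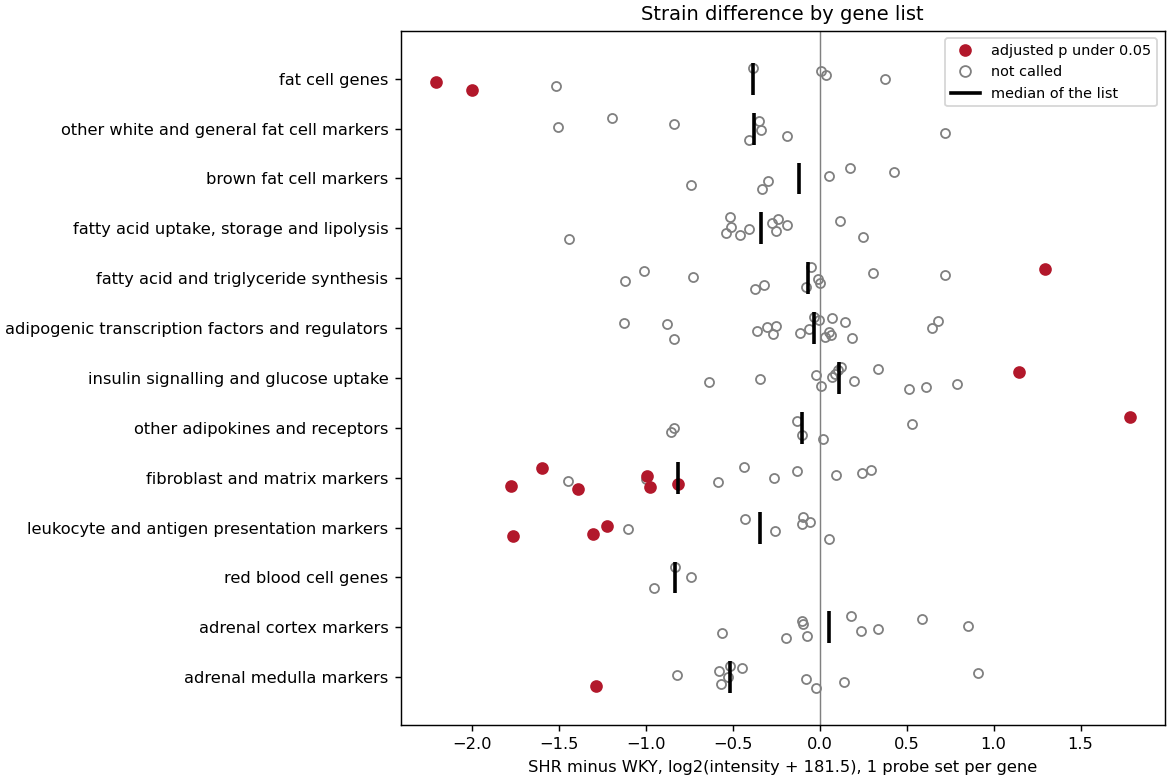
Log2 difference, SHR minus WKY, of each tested gene for the lists shown (circles; filled red where the adjusted p was under 0.05) with the median of the list as a vertical bar. The fat cell genes hold 2 of 7 calls, both below 0, and the matrix markers 6 of 15.

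The genes whose pattern over the 6 arrays was most like that of the group were found by the Pearson r of their log2 values with the mean profile of the 7 member genes, among 1318 probe sets with a range of at least 1 on the log2 scale. Likeness over 6 arrays of 2 strains is a description only, since the strain difference itself enters it, and 33 of the 1318 had an r of at least 0.9. The 8 most alike were Decr2 (r = 0.995), a peroxisomal enzyme of fatty acid oxidation, Sparcl1 (0.985), a matrix glycoprotein, Kcnh3 (0.971), a potassium channel, Gpt (0.969), alanine aminotransferase, Fasn (0.967), fatty acid synthase, Hbb (0.965), Cox6c (0.964), a subunit of cytochrome c oxidase, and Car3 (0.963). Decr2 read 407.3, 359.9 and 403.0 in SHR, against 1262, 994.2 and 535.8 in WKY. Fasn read 4286, 4166 and 4983 in SHR, against 8791, 8388 and 4509 in WKY, by a probe set other than its brightest. WKY replicate 3 lay above the SHR arrays for Decr2 and among them for Fasn. None of the 8 passed the strain test (limma adjusted p from 0.147 to 0.325).

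After the strain means were subtracted, so that only differences among arrays of a strain counted, 61 of the 1318 had an r of at least 0.9. The 8 most alike were Hpcal4 (r = 0.9996), a neuronal calcium sensor, Decr2 (0.996), Jun (0.994), a subunit of AP-1, Prnp (0.991), the prion protein gene, Lenep (0.984), Scfd2 (0.981), Nat8b (0.981) and Igfbp3 (0.981), a binding protein of insulin-like growth factors. In 7 of the 8 WKY replicate 3 was the lowest of the 6 arrays, Decr2 being the exception. The centred profile was itself lowest in WKY replicate 3, at -0.63, so a low value there within WKY follows from the ranking. It was 0.46 and 0.17 in WKY replicates 1 and 2, and nearly flat in SHR, at 0.09, -0.07 and -0.02. These r therefore rest mostly on the 3 WKY arrays. Jun read 2079, 1569 and 1855 in SHR, against 2250, 1702 and 347.7 in WKY. None of the 8 is in the lists of fat cell markers used here.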

How the data were processed

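Per the file headers and the labels, the authors deposited 1 linear intensity per probe set and array. The sources used here do not say how those intensities were summarised and scaled. The instrument's settings file of each array, deposited by the authors, holds other values, from which the fluidics module was taken. The 2 hybridization runs were inferred from the clock times of hybridization there, split at gaps of more than 60 minutes, without use of the date.

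The 59 control probe sets were left out. Names came from the annotation table of the array, with symbols updated by gene ID through RefSeq's GRCr8 table. Values were taken as log2(intensity + 181.5), where the pseudocount is the 20th percentile of values above 0. Probe sets whose mean lay above the 40th percentile, 5244 of 8740, were tested with limma 3.58.1 (eBayes with an intensity trend, two-sided) in R 4.3.3 over all 6 arrays, SHR minus WKY. A gene with several tested probe sets was represented in lists by the brightest. The steps were tested on simulated data. From each list the text names every called gene, or the 3 of smallest p. The members, lists and tests were chosen with earlier results of these data known. Alternatives were other normalizations, pseudocounts, filters and variance models, the replicate number, run or module as a block, the first run alone and each array left out. The number of arrays limits the precision.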

Additional observations from a re-analysis of the deposited data

How the results depend on the processing

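Over all tested probe sets limma's 102 calls became 60 with eBayes without a trend, 53 with the replicate block, 46 with the fluidics module as a block, 20 with hybridization run blocked, 1 within the first run and 4 with run blocked and WKY replicate 3 left out, a setting chosen after seeing the data, and ranged from 36 to 59 with 1 array left out. The labels do not say whether the replicate numbers pair the samples. Deviations of same-numbered arrays correlated at 0.0009, 0.01 and 0.07 across probe sets, which cannot exclude a pairing. The replicate block left 1 fat cell call, Medag, with Cfd at a limma adjusted p of 0.0567. The 2 calls among fat cell probe sets became 1 without a filter, under a 60th percentile filter (Cfd, since Medag lay below it), eBayes without a trend or the module as a block, and 0 with run blocked, within the first run and with run blocked and WKY replicate 3 left out (3 of 10 at an unadjusted p under 0.05 in each, against 9.19%, 8.45% and 9.44% of all). With 1 array left out they ranged from 0 (without WKY replicate 1, 2 at an unadjusted p under 0.05, against 11.6% of all) to 2 (without WKY replicate 3). Every value of Cfd, Fabp4 and Medag kept its negative sign in the settings that gave one, from -1.03 to -2.91. Signs that turned were of probe sets that passed in no setting. Lpl's L03294_at was at -0.061 with run blocked and WKY replicate 3 left out and ranged from -0.016 to 0.59 with 1 array left out. Lpl's rc_AI237731_s_at was at 0.0023 after scaling to a common median and ranged from -0.38 to 0.37. Pparg was at -0.014 with a pseudocount of 4 times the main one and -0.96 with the module as a block and ranged from -0.60 to 0.50. For Lep, D45862_g_at was at 0.13 with run blocked and WKY replicate 3 left out, and D49653_s_at at -0.055 after quantile normalization and -0.023 with the module as a block, with a range from -0.044 to 0.040. The cause was not tested, but the fits by run rest on 1 SHR array by construction. The fit by module sets SHR replicates 2 and 3, of the second run, against WKY replicates 1 and 2, of the first. SHR replicate 1 and WKY replicate 3 were each alone in their module. The module fit thus also leaves out the array singled out for low fat cell values. No detection calls were used, so dim values such as those of Medag in SHR may lie near background.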
